A study of Mus musculus with 2 samples.

Results

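The microRNA genes Mir500, Mir501, Mir362, Mir188 and Mir532 lie side by side on the mouse X chromosome, inside the gene Clcn5. They were taken by symbol, in the GENCODE mouse annotation of the mm10 build, from the counts of reads on each gene's own strand. All 5 genes were found, of 1973 microRNA genes in the tables. The members were chosen by their own-strand levels, which span a narrow range, and by the difference in level that they share between the libraries, so both are given here as descriptions with no test. The data were small RNA sequencing (inserts under 30 nucleotides) of whole limb tissue from B6NCrl mouse embryos, male and female pooled, at embryonic day 14.5. There was 1 group, with no contrast of genotype or treatment, and it held 2 biological replicates of 4 limbs each that carried the same donor label and different collection days. The labels also speak of a single pup, which is at odds with pooled sexes, and the number of embryos behind a sample is therefore unclear. The spread between the samples may be partly technical.

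A clustered microRNA is cut out of a longer primary transcript as a hairpin and then trimmed to a short duplex. Either strand of the duplex, the 5p or the 3p arm, can enter an Argonaute protein and guide it to messenger RNAs through its seed, bases 2 to 8. Hairpins on a shared transcript are made together, but each is processed and its product kept or lost on its own. Clcn5, the host gene, encodes the chloride and proton exchanger CLC-5 of endosomes, whose loss in humans causes the kidney disorder Dent disease. Of the cluster's products, mouse miR-188 is known for shifting bone marrow stromal cells between bone and fat formation, and mouse miR-501 for its presence in muscle progenitor cells. Human miR-362 and miR-532 have been studied mostly in tumours, where miR-362 represses CYLD and miR-532 represses RUNX3.

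In mm10 coordinates the 5 hairpins occupied 10815 bases of the minus strand of chromosome X, and all were on the strand of Clcn5 (ENSMUSG00000004317.14, 7153810 to 7319358). In the order of transcription they were Mir532 (ENSMUSG00000070139.1, 7248402 to 7248497), Mir188 (ENSMUSG00000065398.1, 7247989 to 7248056), Mir362 (ENSMUSG00000070100.1, 7241982 to 7242046), Mir501 (ENSMUSG00000076251.1, 7241243 to 7241351) and Mir500 (ENSMUSG00000070108.2, 7237683 to 7237774). Mir532 and Mir188 were 345 bases apart. A gap of 5942 bases followed before Mir362, then 630 bases to Mir501 and 3468 bases to Mir500. All 5 lay in the same intron, which was 104 kb long, and none overlapped an exon of Clcn5. Of the 5 annotated Clcn5 transcripts, 3 spanned the hairpins, and the others began downstream of them.

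The mature sequences are shown because they say which of the 5 genes can share targets through a seed. RefSeq (GRCm38.p6) gave 9 mature arms of the 5 hairpins. The sequences used here lacked mmu-miR-532-5p, so the seed of that arm was not compared. The 9 arms are written 5′ to 3′ with the seed in capitals, and the 5p arms come first.
mmu-miR-500-5p: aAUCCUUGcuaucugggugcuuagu
mmu-miR-362-5p: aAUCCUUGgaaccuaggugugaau
mmu-miR-501-5p: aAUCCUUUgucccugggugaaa
mmu-miR-188-5p: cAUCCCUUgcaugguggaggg
mmu-miR-500-3p: aAUGCACCugggcaaggguuca
mmu-miR-501-3p: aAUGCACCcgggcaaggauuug
mmu-miR-362-3p: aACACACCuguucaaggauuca
mmu-miR-188-3p: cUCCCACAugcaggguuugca
mmu-miR-532-3p: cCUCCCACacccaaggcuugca

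The 9 arms carried 7 seeds. The 5p arms of Mir500 and Mir362 shared a seed, and the 5p arm of Mir501 differed from it at the last seed base (G8U, counted from 1 at the 5′ end, with the base of miR-500-5p first). The 3p arms of Mir500 and Mir501 shared another seed and matched at 18 of 22 positions, with the differences U9C, G18A, C21U and A22G from miR-500-3p to miR-501-3p. The 3p arms of Mir188 and Mir532 had the run cucccaca in common, displaced by a base, so that their seeds were not the same. Outside the cluster, 2 arms of 1738 in the RefSeq table had the seed of any of these 9 arms. miR-329-3p, from the imprinted Dlk1-Dio3 locus on chromosome 12, had the seed of miR-362-3p, and miR-7061-3p had that of miR-188-5p.

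The hairpins of Mir501 and Mir500 were the most alike of the 10 pairs, with 67.3% of aligned columns identical, and are shown because reads of like hairpins can be confused. The mature arms are in capitals.
Mir501 hairpin, chrX:7241243-7241351, minus strand: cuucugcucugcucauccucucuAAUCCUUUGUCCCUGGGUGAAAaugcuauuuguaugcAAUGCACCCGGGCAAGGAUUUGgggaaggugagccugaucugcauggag
Mir500 hairpin, chrX:7237683-7237774, minus strand: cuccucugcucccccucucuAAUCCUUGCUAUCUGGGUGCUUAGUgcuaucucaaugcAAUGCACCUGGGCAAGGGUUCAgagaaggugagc
The longest stretch that these hairpins had in common was ccucucuaauccuu, 14 nucleotides. No stretch of 22 nucleotides in a member occurred in any further annotated microRNA gene, and the longest stretch shared with any of them was 11 nucleotides for Mir188 and Mir362 and 12 for Mir532. The tables leave out reads with several alignments, and a read that spans a mature arm of a member would therefore not have been lost to another microRNA gene. Copies elsewhere in the genome were not searched.

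The depth was 4608816 own-strand counts in replicate 1 and 4144385 in replicate 2, and levels are in CPM, which scales a gene's counts to these sums. A count of 3, the floor, stood for 0.651 CPM in replicate 1 and 0.724 CPM in replicate 2, far below every member. Intervals at 95% are exact binomial (Clopper-Pearson) and cover counting error only, since the tables hold reads and not molecules. The microRNA genes listed for limb identity, all from Hox clusters, were present in both libraries. The 6 listed genes of the Hox clusters were all detected (at least 10 counts in both libraries), with sums of 65414 CPM in replicate 1 and 68182 CPM in replicate 2. Of these 6 genes 5 were higher in replicate 1, and Mir196b, which dominates the sum, was lower. Of the 5 brain genes in the tables none was detected, and Mir124a-1, Mir124a-2, Mir124a-3 and Mir9-2 were at 0 in both libraries. These are copies with near-identical sequence, whose reads can be lost to several alignments.

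Mir532, the first hairpin of the cluster, gave the most reads. It had 2910 CPM in replicate 1 (interval 2861 to 2960) and 2631 CPM in replicate 2 (interval 2582 to 2681), and ranked 62 of all genes by mean level. Mir188, its neighbour 345 bases downstream, had 2381 CPM in replicate 1 (interval 2336 to 2426) and 2067 CPM in replicate 2 (interval 2024 to 2111), at rank 72. This pair held 75.7% of the cluster's counts in replicate 1 and 75.2% in replicate 2. The remaining hairpins, all beyond the gap of 5942 bases, were much lower and close to one another. Mir501 had 673 CPM in replicate 1 (interval 650 to 697) and 630 CPM in replicate 2 (interval 606 to 655). Mir500, the last hairpin, had 548 CPM in replicate 1 (interval 527 to 570) and 486 CPM in replicate 2 (interval 465 to 508). Mir362, which stands between Mir188 and Mir501, was the lowest, with 475 CPM in replicate 1 (interval 456 to 496) and 434 CPM in replicate 2 (interval 414 to 455). Each member was thus higher in replicate 1. The counting intervals of the libraries overlapped for Mir501 and were separate for the other 4 genes, by less than 1 CPM in the case of Mir362.

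**Figure D1:**
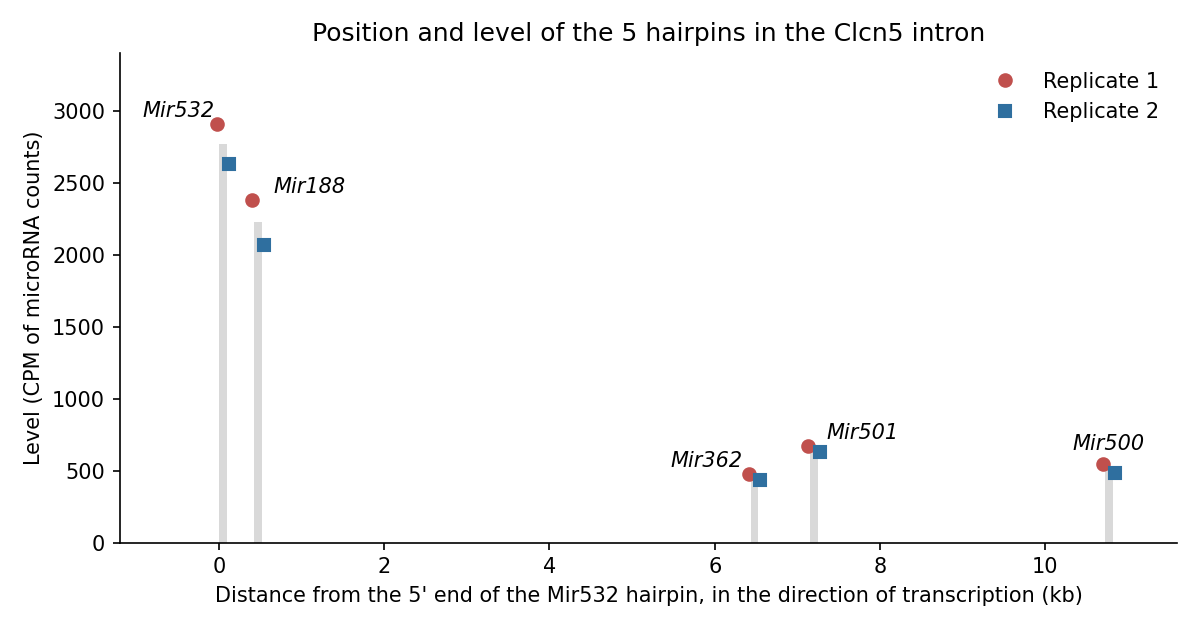
Level of each hairpin (vertical axis, CPM) against its distance in kb from the 5′ end of the Mir532 hairpin (horizontal axis), with bars for the mean of 2 libraries, circles for replicate 1 and squares for replicate 2. Mir532 and Mir188, 345 bases apart, stand at 2771 and 2224 CPM on average, and the 3 hairpins further downstream between 455 and 652 CPM.

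As mean ± SD (n = 2), the levels were 2771 ± 198 CPM for Mir532, 2224 ± 222 CPM for Mir188, 652 ± 30.3 CPM for Mir501, 517 ± 43.7 CPM for Mir500 and 455 ± 29.0 CPM for Mir362. This order held in both libraries. Between neighbours in the order, the ranges of mean ± SD overlapped for Mir500 and Mir362 alone. Within a library Mir500 nevertheless gave 1.15 times the counts of Mir362 in replicate 1 (interval 1.09 to 1.22) and 1.12 times in replicate 2 (interval 1.05 to 1.19). The step down from Mir188 to Mir501 was 3.41-fold in mean level, whereas Mir532 was 1.25 times Mir188 and the 3 lower genes lay within 1.43-fold. Mir532, Mir188, Mir501 and Mir500 came in the same order along the transcript and by level. Mir362 did not keep to this order, since it follows Mir188 in position and is last in level. Whether level depends on position was not tested. How evenly different microRNAs yield reads was not measured, so these are ratios of reads and not of RNA amounts. The tables count both arms of a hairpin as 1 gene, so the share of each arm is unknown.

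Together the cluster gave 32205 counts in replicate 1 and 25898 in replicate 2. In CPM this was 6988 in replicate 1 and 6249 in replicate 2, and the mean was 6618 ± 522 CPM (SD, n = 2). The cluster thus held 0.662% of the microRNA counts, and it made up 7.20% of the counts of X-chromosome microRNA genes, whose level is dominated by Mir322 at 53715 ± 1675 CPM. No opposite-strand read was counted at any of the 5 genes in either library, so counting on either strand gave the same member counts.

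The make-up of the cluster was close between the libraries. Mir532 took 41.6% of its counts in replicate 1 (interval 41.1 to 42.2) and 42.1% in replicate 2 (interval 41.5 to 42.7). Mir188 took 34.1% in replicate 1 (interval 33.6 to 34.6) and 33.1% in replicate 2 (interval 32.5 to 33.7). Of all shares Mir188's moved the most, and its intervals still met. Mir501 took 9.63% in replicate 1 and 10.1% in replicate 2, Mir500 7.85% in replicate 1 and 7.78% in replicate 2, and Mir362 6.80% in replicate 1 and 6.95% in replicate 2. Ratios between 2 members of the same library do not depend on how the library was scaled. For all 10 pairs of members, the counting intervals of this ratio overlapped between the libraries, which does not show that the ratios were equal. The ratio that differed the most was that of Mir188 to Mir501, at 3.54 in replicate 1 (interval 3.40 to 3.68) and 3.28 in replicate 2 (interval 3.14 to 3.43).

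**Figure D2:**
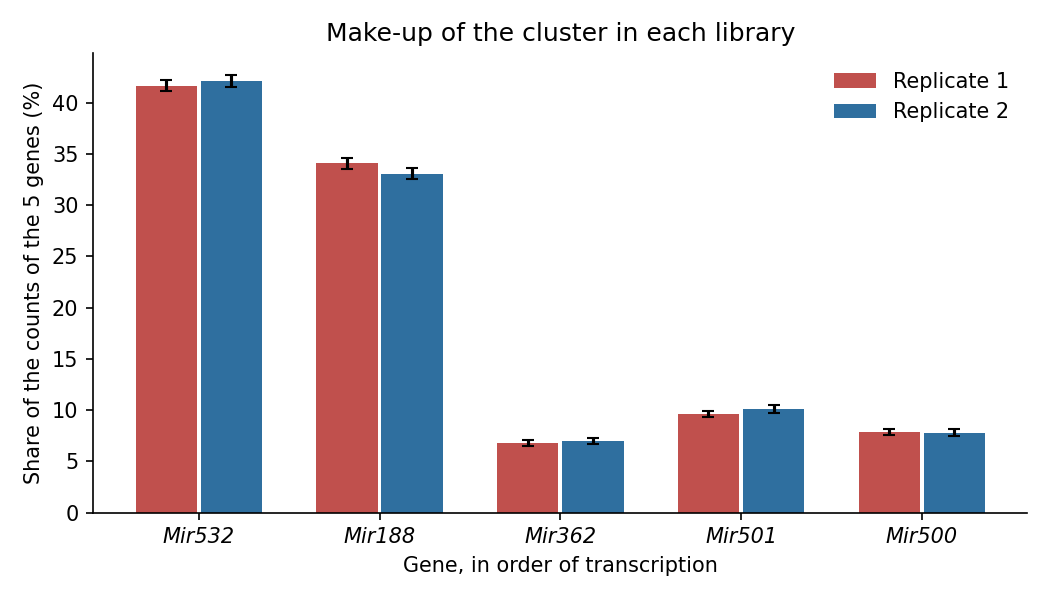
Share of each gene in the counts of the 5 genes (vertical axis, %), by gene in the order of transcription (horizontal axis), with replicate 1 left of replicate 2 and exact 95% binomial intervals as error bars. Mir532 holds 41.6% and 42.1% and Mir188 34.1% and 33.1%, and the bars of the libraries are nearly level for every gene.

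The difference between the libraries was then described as a log2 ratio of replicate 1 over replicate 2. All 5 members were higher in replicate 1, by 0.20 for Mir188 (interval 0.16 to 0.24), 0.17 for Mir500 (0.09 to 0.26), 0.15 for Mir532 (0.11 to 0.18), 0.13 for Mir362 (0.04 to 0.22) and 0.09 for Mir501 (0.02 to 0.17). Of 407 genes with at least 10 counts in total, 43.0% were higher in replicate 1, and their median log2 ratio was -0.04. The set was chosen with this shift known, so its count is not set against that share. The members' median was 0.15 and their summed level differed by 0.16 (interval 0.14 to 0.18). No member was 1.5-fold apart, a distance that 12.3% of the 407 genes reached either way and 4.67% with the higher value in replicate 1. Those shares rest on genes with few counts: of 275 genes with 100 counts or more in total, 1 was at least 1.5-fold higher in replicate 1. The distance between the members was largest for Mir188 and Mir501, whose log2 ratios were 0.11 apart.

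The 185 other genes that averaged 100 CPM or more include genes far above the members in level. Of these, 51 (27.6%) had a log2 ratio at least as high as that of Mir501, the lowest member. The median size of their log2 ratio, either way, was 0.11, against 0.15 in the cluster. The coefficient of variation over the 2 libraries ran from 4.65% for Mir501 to 9.97% for Mir188, and its median over the 185 other genes was 5.21%. With 1 library on each side, no spread between samples can be set against the shift.

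**Figure D3:**
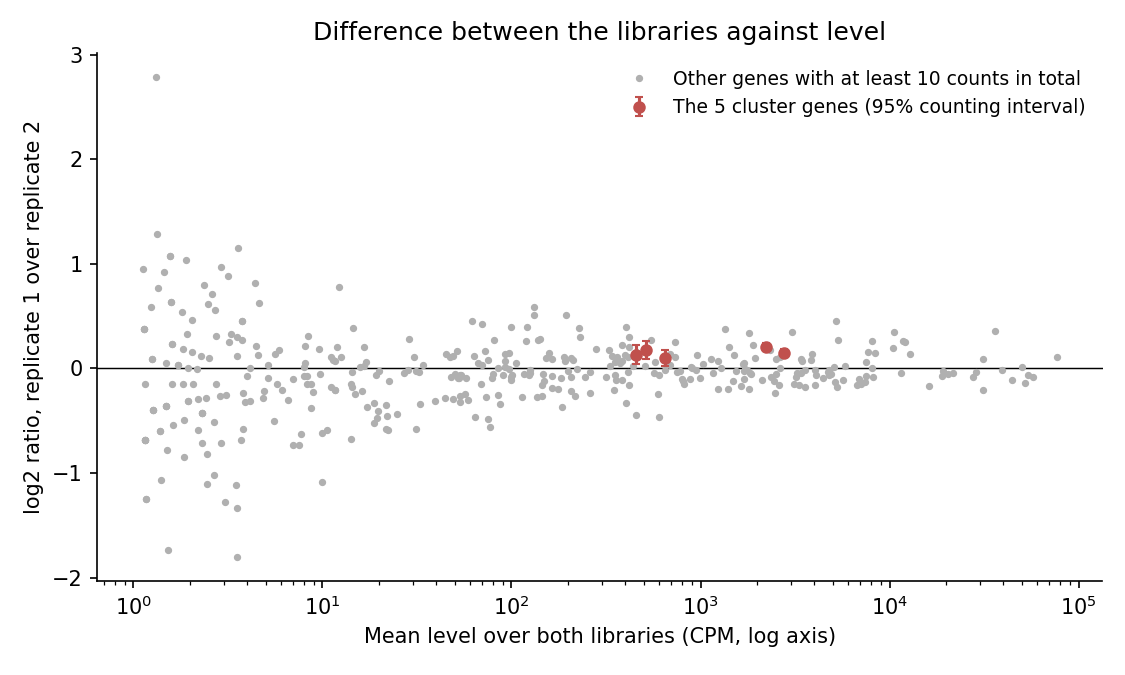
The log2 ratio of replicate 1 over replicate 2 (vertical axis) against the mean level in CPM (horizontal log axis) for the 407 genes that had 10 or more counts in all, with the 5 cluster genes as large points with 95% counting intervals and the other genes as small grey points. The cluster genes lie between 0.09 and 0.20, with points of other genes above and below them.

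Several lists of cell type markers also differed between the libraries. The 7 genes of surface epithelium were all higher in replicate 1, with sums of 64405 CPM in replicate 1 and 53931 CPM in replicate 2. Skeletal muscle had 8 genes in the tables, of which 4 were detected and none was at 0 in both libraries. Mir1a-1, Mir133a-1 and Mir133a-2 had 1 or 2 counts in each library. These are numbered copies, whose reads can likewise be lost to several alignments, so their low counts do not show that their microRNAs were absent. The list summed to 6565 CPM in replicate 1 and 4789 CPM in replicate 2. Most of this was Mir206, with 6041 CPM in replicate 1 and 4411 CPM in replicate 2. Of the muscle genes with at least 10 counts in total, 5 of 5 were higher in replicate 1. The 3 erythroid genes, all detected, were all higher there too and summed to 547 CPM in replicate 1 and 417 CPM in replicate 2. Cartilage went the other way, with both genes lower in replicate 1 and sums of 59560 CPM in replicate 1 and 63162 CPM in replicate 2. Mesenchyme, with all 6 genes detected, summed to 39409 CPM in replicate 1 and 42942 CPM in replicate 2, with 4 of 6 genes higher in replicate 1. Most of this sum was Mir214, with 28950 CPM in replicate 1 and 33376 CPM in replicate 2, and Mir199a-2 was lower in replicate 1 as well. The endothelial gene Mir126a had 18963 CPM in replicate 1 and 19268 CPM in replicate 2, and the 3 leukocyte genes in the tables summed to 598 CPM in replicate 1 and 655 CPM in replicate 2. Mir122, the liver gene, had 6.29 CPM in replicate 1 and 13.5 CPM in replicate 2, and the endocrine gene Mir375 had 387 CPM in replicate 1 and 526 CPM in replicate 2. What part these tissues had in the cluster's shift was not tested, and in bulk tissue fewer cells of a type and less RNA per cell cannot be told apart.

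Most other microRNA genes of the X chromosome were lower in replicate 1. Of 41 others that passed the same count minimum, 9 were higher in replicate 1, and the median log2 ratio was -0.27. Only 4 of the 41 had a ratio at least as high as that of Mir501. These were Mir450b (0.22), Mir450-1 (0.17) and Mir542 (0.13) of a single cluster, and Mir741, which had 11 counts in replicate 1 and 1 in replicate 2. They were picked out after their values were seen. Among the 17 of the 41 that averaged 100 CPM or more, 7 were higher in replicate 1 and the median was -0.06. Of 138 other detected genes in introns, 47 were higher in replicate 1, with a median of -0.07.

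The range of levels within the cluster was set beside that of other runs of neighbouring genes. A run joined genes of the same strand that were no more than 10 kb apart, and 13 runs had at least 3 genes that passed the minimum of 10 counts. In the cluster the highest gene was 6.09 times the lowest by mean level, 6.12 times in replicate 1 and 6.06 times in replicate 2. Only the run from Mir182 to Mir183 was narrower, at 5.37-fold with 3 genes. The next wider runs were close to the cluster: Mir25 to Mir106b at 7.44-fold with 3 genes and Mir302b to Mir302d at 7.48-fold with 4. The median of the other 12 runs was 125-fold. The other X-chromosome runs reached 16.0-fold, between Mir106a (62.3 CPM in replicate 1 and 91.9 CPM in replicate 2) and Mir19b-2 (4.82 ± 0.685 CPM), and 1715-fold, between Mir322 and Mir450-2 (31.3 ± 0.411 CPM). In each of these 2 runs, 2 genes have a 22-nucleotide stretch that also occurs in a further microRNA gene, and they may be undercounted. Without such genes, the run from Mir363 to Mir106a kept 4 genes within 5.46-fold, and the cluster was the third narrowest of 11 runs. The number of genes differed between runs, and the widest 2 had 11 and 32 genes. The lowest genes of these 2 averaged 2.59 and 1.16 CPM, against 455 CPM for Mir362. Genes near the count minimum thus widened ranges of other runs. The narrow range was also part of why the members were chosen.

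**Figure D4:**
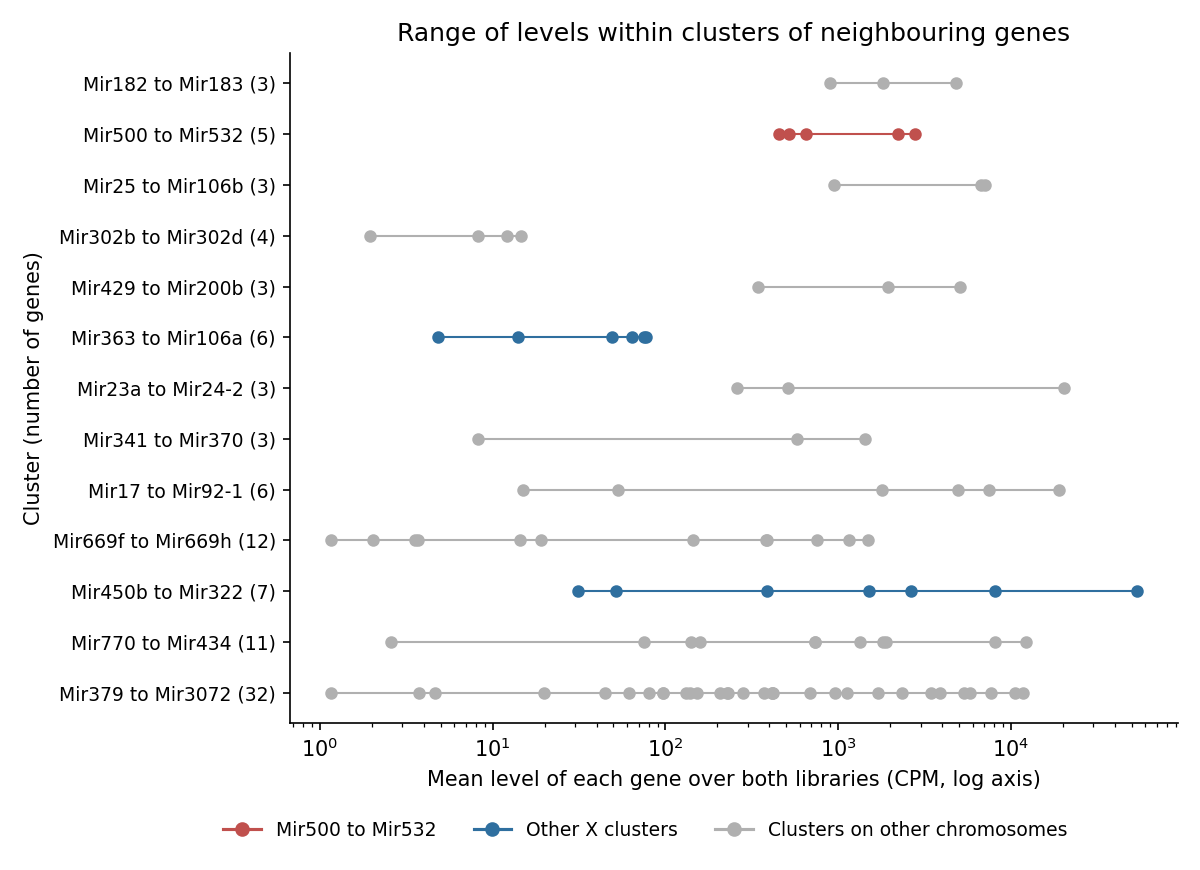
Mean level of each gene in CPM (horizontal log axis) for 13 runs of neighbouring genes (rows, with the number of genes), ordered from the narrowest to the widest. The 5 genes from Mir500 to Mir532 span 6.09-fold, second to Mir182 to Mir183 at 5.37-fold, and the other 2 runs of the X chromosome span 16.0-fold and 1715-fold.

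Within the runs the log2 ratios of neighbours also spanned different widths. Those of the 5 cluster genes spanned 0.11, the fourth narrowest of the 13 runs. The run from Mir450b to Mir322 spanned 0.29, around a median of 0.01, and that from Mir363 to Mir106a spanned 0.39, around a median of -0.48 with all 6 genes lower in replicate 1. Low counts widen these spans, and the Mir363 to Mir106a genes had at most 77.1 CPM on average. A shared shift towards replicate 1 was not particular to the cluster. In the run from Mir770 to Mir434 all 11 genes were higher in replicate 1, around a median of 0.26. From Mir379 to Mir3072 it was 29 of 32 genes, around a median of 0.15, and from Mir429 to Mir200b 3 of 3. By contrast, 0 of 6 genes from Mir17 to Mir92-1 and 0 of 3 from Mir25 to Mir106b were higher in replicate 1. These other runs were picked out after their values were seen.

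In the order of mean level over all genes, Mir532 stood between Mir10a (3062 ± 514 CPM) and Mir503 (2648 ± 6.94 CPM), and Mir188 between Mir154 (2336 ± 198 CPM) and Mir872 (2106 ± 117 CPM). The SD of Mir532 and Mir188 was wide enough to cover the distance to their lower neighbours. Mir501 (rank 115) stood between Mir676 (652 ± 3.87 CPM) and Mir671 (606 ± 19.3 CPM). Mir500 (rank 122) stood between Mir3071 (548 ± 73.7 CPM) and Mir27a (510 ± 5.39 CPM), and Mir362 (rank 126) between Mir141 (455 ± 34.7 CPM) and Mir186 (437 ± 4.70 CPM). None of the lower 3 members differed from its neighbour above by more than its SD.

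The genes most like the median member, by the sum of the absolute differences in log2 mean level and in log2 ratio over the 2 libraries, were Mir376c (distance 0.09), Mir676 (0.16), Mir125b-2 (0.19), Mir540 (0.21) and Mir370 (0.26). Mir376c had 718 CPM in replicate 1 and 654 CPM in replicate 2, a log2 ratio of 0.13. The log2 ratio was 0.11 for Mir540, 0.06 for Mir370, 0.03 for Mir125b-2 and -0.01 for Mir676. Those of Mir370, Mir125b-2 and Mir676 were below that of Mir501, the lowest member, at 0.09. Of these 5 genes 3 lie on chromosome 12 and only Mir676 on the X chromosome. With 2 libraries this likeness rests on 1 level and 1 ratio for each gene.

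Of the genes outside the cluster with the seed of a listed member arm, Mir329 was in the tables and detected. It had 460 CPM in replicate 1 and 373 CPM in replicate 2 (mean 417 ± 61.5 CPM), with a log2 ratio of 0.30. Its mean level was thus close to that of Mir362, whose 3p arm has the same seed, at 455 ± 29.0 CPM, and the SD of Mir329 was larger than the distance between them. Which arms of Mir329 and Mir362 the reads came from is not recorded, so the amount of this seed in the limb cannot be given. No gene of the tables was found under the symbol Mir7061, so no level is given for it.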

How the data were processed

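The authors deposited a table of raw read counts for each library, without normalization. The read-me files that accompany the tables name mm10 as the build and GENCODE M4 as the annotation. The aligner and counter are not given in the sources used here. The 3 count columns had no header and were taken, from their values, as either-strand, own-strand and opposite-strand counts. Own-strand counts made up 51.2% of reads in replicate 1 and 49.4% in replicate 2. The tally rows were left out of totals: unmapped reads (12.8% in replicate 1 and 13.7% in replicate 2), reads with several alignments (31.8% in replicate 1 and 32.6% in replicate 2) and reads on no gene's own strand (4.19% in replicate 1 and 4.31% in replicate 2).

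Gene identifiers were looked up in GENCODE M21, also mm10, where 1894 of 1973 had an entry and a position, and sequences from RefSeq (GRCm38.p6). Log2 ratios carried a prior count of 0.5. Ratio intervals came from the exact binomial interval of replicate 1's share of a gene's counts, given the library sums. Hairpins were aligned globally with Biopython 1.88 (match score 2). TMM factors came from edgeR 4.0.16 and size factors from DESeq2 1.42.0 in R 4.3.3. Other steps used matplotlib 3.10.9, scipy 1.17.1, pandas 2.3.3, numpy 2.4.6 and Python 3.11.15. Alternatives were other scalings, strands, count minimums and gaps, and each library alone.

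No test was made, because 1 library stands on each side of the only difference and the genes were chosen with it known. The members and the marker lists were chosen with earlier results of these data known. Genes beyond the members were named by rule: neighbours in mean level, detected genes with a member's seed, the 5 most alike, and the highest and lowest gene of each X-chromosome run. Marker genes came from the lists, and Mir450b, Mir450-1, Mir542 and Mir741 were named after their values were seen.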

Additional observations from a re-analysis of the deposited data

How the results depend on the processing

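Scaling with TMM or DESeq2 size factors in place of the sum of microRNA counts gave a log2 ratio of the summed level of 0.20 in both cases (0.16 as reported), and the total with reads of several alignments also gave 0.20. All 5 members were higher in replicate 1 under each of the 5 scalings and countings tried. The summed level was 4036 CPM with reads of several alignments in the total and 12531 CPM without the 10 most abundant genes. It was 6249 CPM without replicate 1 and 6988 CPM without replicate 2, and the highest over lowest member was 6.06 and 6.12. Genes at least 1.5-fold higher in replicate 1 numbered 19 of 407, but 108 of 687 with no filter on counts and 1 of 275 at 100 counts or more. The median range of the other runs was 59.9-fold with gaps of at most 3 kb, at which the members formed no run of 3 genes. It was 78.4-fold with gaps of at most 50 kb and 77.0-fold without genes that share a stretch, against 125-fold as reported. Of 89 alternative values, 24 moved, all of them named here or levels and ratios of single members under the same scalings, and none turned in sign. Among the 24, only levels and ratios moved beyond a spread, since gene counts and ranges of other runs have none. No paired analysis was possible because there is only 1 group.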
